A study of Tegula funebralis with 16 samples.

Results

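Chaperone transcripts of cell organelles were described in heated and control snails: GRP78 (SR_contig_7836), a BiP-like contig (SR_contig_18099_C3.1, annotated in the table as a probable luminal binding protein) and HSP60 (SR_contig_13515_C3.1). They were found by contig identifier and are 3 of the 15903 assembled contigs in the expression table. They were chosen by their measured heated over control values in these libraries, so those values are given as a description, with no test. That the BiP-like contig acts in an organelle rests on its annotated name alone and was not tested.

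Chaperones help other proteins to fold, and each compartment of a cell has its own. GRP78, also called BiP in vertebrates, is the HSP70 of the endoplasmic reticulum, where it binds unfolded secretory and membrane proteins and holds the stress sensors PERK, IRE1 and ATF6 inactive until unfolded protein accumulates. HSP60 is the chaperonin of the mitochondrial matrix, a barrel that works with the HSP10 lid to fold proteins imported into mitochondria.

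RNA was sequenced from whole Chlorostoma (Tegula) funebralis, an intertidal snail, taken at 4 sites in California. Aliso Beach and La Jolla are the southern sites, and Slide Ranch and Pigeon Point the northern ones. Heated snails were in air that started at 15 °C and was warmed 3 °C at a time until it reached 34 °C, where it was held for the last 2 hours and 20 minutes of 5.5 hours in all, and control snails were in air at 15 °C for the same 5.5 hours. Each site had 2 heated and 2 control libraries, so there were 8 groups of 2 and 16 libraries. How many animals went into a library is not stated in the labels, so p-values measure only the spread between these libraries, which may be technical. In whole animals, fewer cells of a type and less RNA per cell cannot be told apart. A contig can be a fragment of a transcript, and reads of close copies, such as the HSP70 family, may have been shared between contigs.

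Libraries held 17594009 to 26103215 recovered reads. Both first libraries of La Jolla and both of Pigeon Point, heated and control, stood apart: 1 contig (SR_contig_83, named senescence-associated protein) took 16.6% to 39.2% of their reads, against 1.58% to 6.80% in the other 12. Values with these 4 libraries left out are therefore given beside the results. Contigs named for muscle (25), digestive gland (82), testis and sperm (41) and ovary and egg (34) were detected, none of them at 0 in every library. Their summed normalised counts overlapped between heated and control libraries. The ovary and egg sum was 289803 to 699194 in heated and 219858 to 472738 in control libraries, and the digestive gland sum was 998882 to 1933477 in heated and 849470 to 1315452 in control libraries. The muscle sum was 99884 to 184673 in heated and 86913 to 180077 in control libraries, and the testis and sperm sum was 19069 to 30111 in heated and 21390 to 30641 in control libraries. Their part in the heated and control values of the 3 chaperones was not tested.

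GRP78 averaged 21136 ± 10850 normalised read counts in heated snails and 5143 ± 3547 in controls (SD, n = 8 each), and 3663 to 24584 reads stood behind each value. At Aliso Beach it had 14475 and 15267 normalised counts in heated libraries, against 4706 and 3586 in controls. At La Jolla it had 28694 and 12678 in heated libraries, against 6264 and 3867 in controls. All 4 southern heated libraries lay above all 4 southern controls. At Slide Ranch GRP78 had 16833 and 18737 in heated libraries, against 3188 and 3406 in controls. At Pigeon Point it had 45159 and 17245 in heated libraries, against 13479 and 2644 in controls. The heated and control libraries overlapped over all sites, because the first Pigeon Point control (13479) lay above the second heated La Jolla library (12678). Heated over control, the log2 fold change averaged over sites was 2.12 ± 0.33 (SE), which is 4.33-fold. In the 12 libraries that did not stand apart, GRP78 averaged 15873 ± 2170 in heated snails and 3566 ± 694 in controls (SD, n = 6 each), the groups did not overlap, and the log2 fold change was 2.18 ± 0.09 (SE).

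The BiP-like contig was close to undetected in controls and present in every heated library. It averaged 576 ± 366 normalised counts in heated snails and 1.61 ± 2.05 in controls (SD, n = 8 each). At Aliso Beach it had 396 and 347 normalised counts in heated libraries, against 0 and 1.68 in controls. At La Jolla it had 182 and 363 in heated libraries, against 1.10 and 3.40 in controls. The southern heated libraries were 182 or higher and the southern controls 3.40 or lower. At Slide Ranch it had 1118 and 1086 in heated libraries, against 0.870 and 0 in controls. At Pigeon Point it had 338 and 779 in heated libraries, against 5.81 and 0 in controls. Heated and control libraries did not overlap at any site, and Slide Ranch had the highest heated values.

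Since most BiP-like control values rest on a few reads, its size of change is best read from the reads. The 8 heated libraries held 4732 BiP-like reads and the 8 controls 12, a ratio of 475 after scaling for library size (exact 95% interval 272 to 920, which covers counting error only). By site, 842 heated and 2 control reads at Aliso Beach gave a ratio of 477 (132 to 3945), and 556 heated and 5 control reads at La Jolla gave 131 (55.7 to 405). At Slide Ranch 2377 heated reads and 1 control read gave 2761 (495 to 109102), and at Pigeon Point 957 heated and 4 control reads gave 335 (131 to 1234). All 4 control reads of Pigeon Point came from its first control, and its second libraries held 773 heated and 0 control reads. Without the 4 libraries that stand apart, 4459 heated and 7 control reads over all sites gave a ratio of 733 (356 to 1825). There La Jolla, with 467 heated and 4 control reads, had 107 (41.5 to 394). The intervals by site in all 16 libraries overlapped between Slide Ranch, Pigeon Point and Aliso Beach, and that of La Jolla lay below that of Slide Ranch. These intervals hold no spread between libraries, so no difference between sites is read from them. A count of 0 allows up to 3 reads, and 6 of the 8 controls were at or under that floor, which is 2.05 to 4.36 normalised counts in the control libraries. The second heated Pigeon Point library was at least 381-fold higher than the floor of the second Pigeon Point control. The fitted log2 fold change of 7.88 ± 0.43 (SE) depends on the added pseudocount of 1. It was 8.43 with a pseudocount of 0.5 and 6.26 with a pseudocount of 5. In the 12 libraries it was 8.37 ± 0.30, with means of 682 ± 363 in heated snails and 0.992 ± 1.36 in controls (SD, n = 6 each).

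HSP60 averaged 2680 ± 778 normalised counts in heated snails and 965 ± 362 in controls (SD, n = 8 each), with 684 to 3153 reads behind each value. At Aliso Beach it had 2384 and 2166 normalised counts in heated libraries, against 1307 and 1004 in controls. At La Jolla it had 3733 and 2209 in heated libraries, against 1462 and 844 in controls. The lowest southern heated value, 2166, lay above the highest southern control, 1462. At Slide Ranch HSP60 had 2473 and 2136 in heated libraries, against 667 and 505 in controls. At Pigeon Point it had 4102 and 2239 in heated libraries, against 1310 and 625 in controls. Heated and control libraries did not overlap over all 16. Its log2 fold change was 1.52 ± 0.21 (SE), which is 2.87-fold, and 1.55 ± 0.11 in the 12 libraries that did not stand apart.

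**Figure D1:**
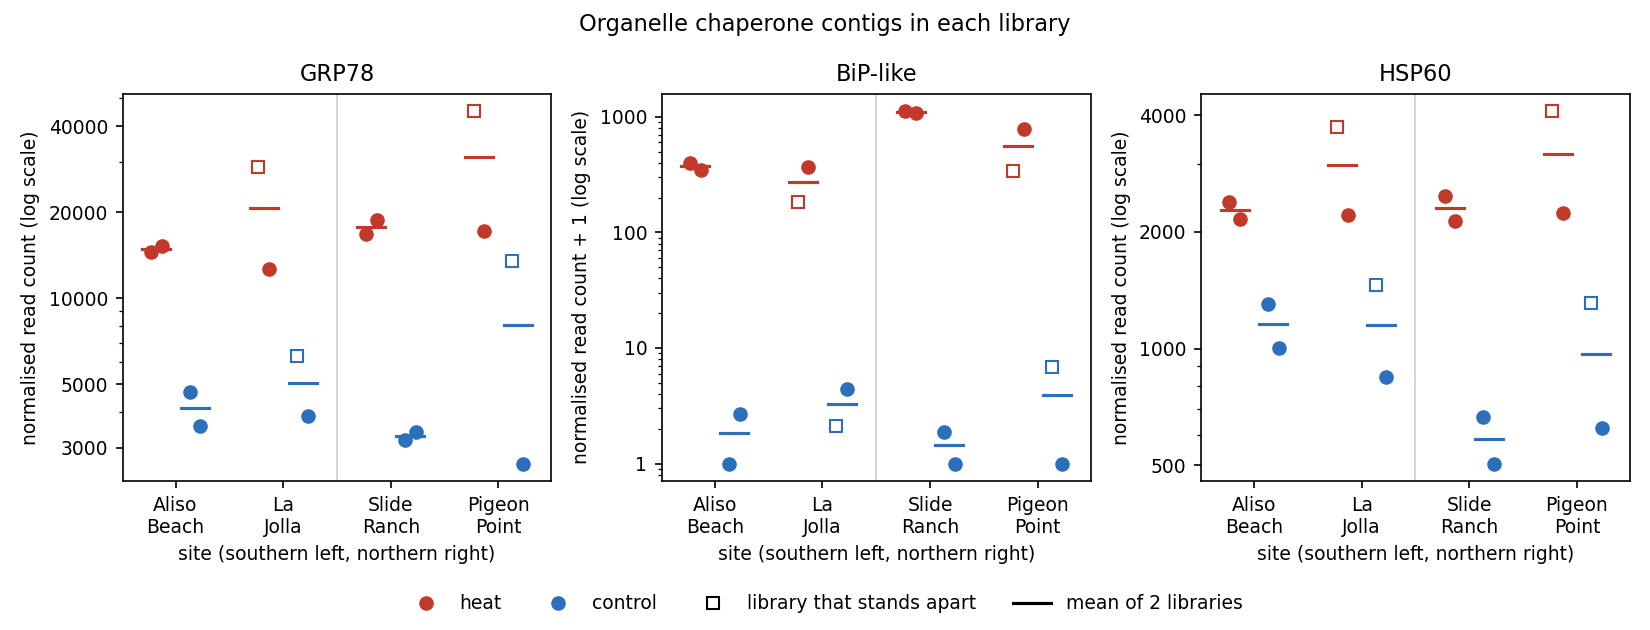
Normalised read counts (log axis, plus 1 for the BiP-like contig) of the 3 transcripts in each of the 16 libraries by site, southern sites on the left, heated snails left of controls; lines are means of 2 libraries and open squares the 4 libraries that stand apart. All heated BiP-like values are 182 or more and all control values 5.81 or less, while for GRP78 the first Pigeon Point control (13479) reaches the heated range.

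Over all 14444 contigs with a mean normalised count of at least 10, every heated library lay above every control in 1.17%, and the BiP-like contig and HSP60 are among them. Over the 12 libraries this held for 3.2% of contigs, GRP78 included. With Benjamini-Hochberg adjustment and a threshold of 0.05, limma called 4.24% of the contigs under heat. Of these, 301 were higher (2.08%) and 312 lower (2.16%). The counts were 483 and 614 without La Jolla heat 2, and the lower count was 188 without Aliso Beach control 2. Without the 4 libraries that stand apart, 1525 were higher (10.6%) and 1187 lower (8.22%). Scaling by the reads outside SR_contig_83, an alternative chosen after the data were seen, gave 165 higher and 1254 lower and moved the median contig by -0.39 on the log2 scale. Relative to that median, the log2 fold changes were 2.11 for GRP78, 8.04 for the BiP-like contig and 1.52 for HSP60, close to those with the deposited scaling. All of these rest on the contrast by which the 3 were chosen, and nothing is read from them.

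The spread among heated libraries differed between the 3. The highest heated value was 6.13 times the lowest for the BiP-like contig, 3.56 times for GRP78 and 1.92 times for HSP60. The coefficient of variation (SD over mean) of heated libraries was 63.5% for the BiP-like contig, 51.3% for GRP78 and 29.0% for HSP60. In the 6 heated libraries that did not stand apart, it was 53.2% for the BiP-like contig, 13.7% for GRP78 and 5.84% for HSP60. HSP60 averaged 2268 ± 132 in those 6 heated libraries and 825 ± 294 in the 6 controls (SD, n = 6 each), where its coefficient of variation was 35.6%. Its heated values were thus closer together than its control values.

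Ordered by group mean (n = 2 each), GRP78 was highest in heated Pigeon Point snails (31202), followed by heated La Jolla (20686), heated Slide Ranch (17785) and heated Aliso Beach snails (14871). The control means followed, with 8062 at Pigeon Point, 5066 at La Jolla, 4146 at Aliso Beach and 3297 at Slide Ranch. Neighbours in this order overlapped except heated Slide Ranch and heated Aliso Beach, heated Aliso Beach and control Pigeon Point, and control Aliso Beach and control Slide Ranch. For the BiP-like contig, heated Slide Ranch snails (1102) were above heated Pigeon Point (559), heated Aliso Beach (372) and heated La Jolla snails (273). Of those heated neighbours, only Slide Ranch and Pigeon Point did not overlap. For HSP60, the heated means were 3171 at Pigeon Point, 2971 at La Jolla, 2304 at Slide Ranch and 2275 at Aliso Beach, and all neighbours among them overlapped. The HSP60 control means were 1155 at Aliso Beach, 1153 at La Jolla, 968 at Pigeon Point and 586 at Slide Ranch, also with every neighbour overlapping. Slide Ranch controls thus had the lowest mean of both GRP78 and HSP60.

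By site, the log2 fold change of GRP78 was 1.86 at Aliso Beach, 1.95 at La Jolla, 2.43 at Slide Ranch and 2.22 at Pigeon Point (SE 0.67 each). That of HSP60 was 0.99 at Aliso Beach, 1.37 at La Jolla, 1.98 at Slide Ranch and 1.74 at Pigeon Point (SE 0.42 each). Both southern sites lay below both northern sites for GRP78 and HSP60, an order that 16.5% of all tested contigs also had. The heat effect was above 0 at all 4 sites for all 3 transcripts, as it was for 20.7% of contigs. With the 4 libraries left out, GRP78 had 1.71 at La Jolla and 2.70 at Pigeon Point, and HSP60 1.39 and 1.84, each from 1 heated and 1 control library. Differences between single sites were not tested.

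**Figure D2:**
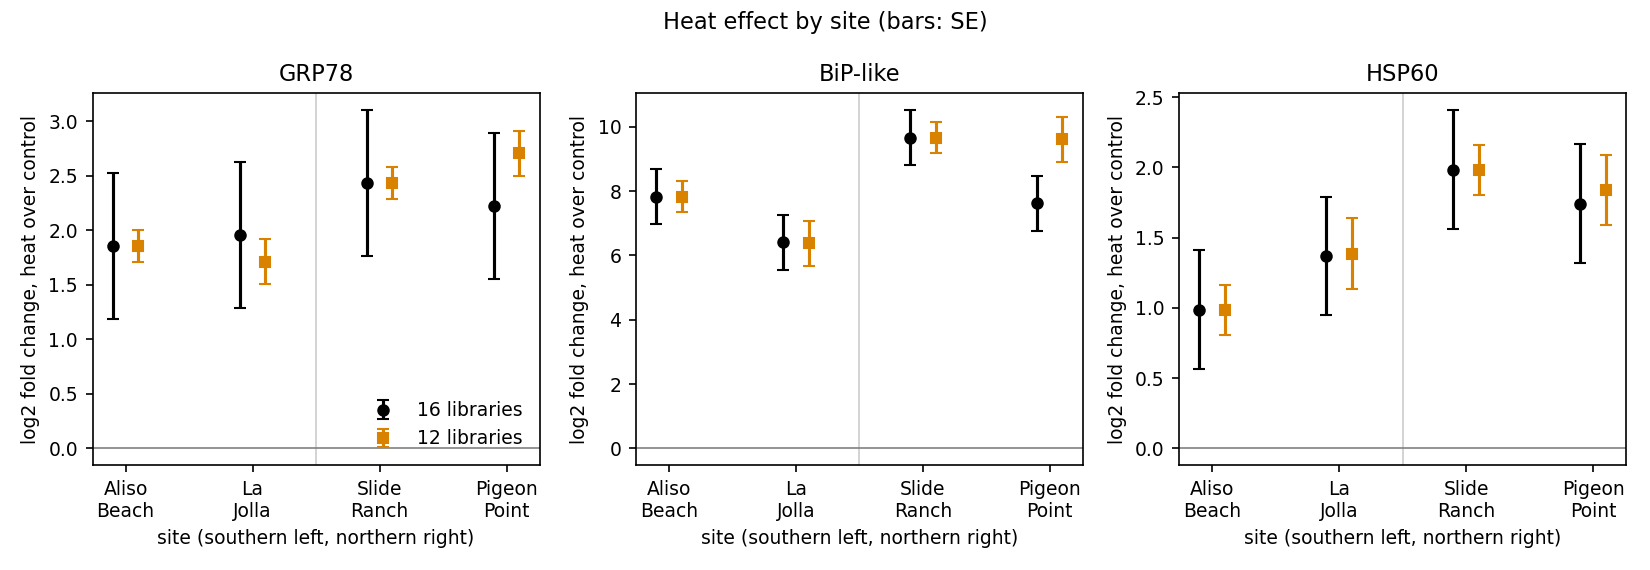
Log2 fold change, heated over control, of each transcript at the 4 sites, southern sites left, with bars of 1 SE, in all 16 libraries (circles) and in the 12 that do not stand apart (squares). GRP78 and HSP60 lie lower at Aliso Beach (1.86 and 0.99) than at Slide Ranch (2.43 and 1.98). BiP-like values depend on the pseudocount of 1 and rest on 1 to 5 control reads per site in 16 libraries. In the 12, Pigeon Point has 0 BiP-like control reads.

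The study set southern against northern snails. The transcripts were chosen by their heated over control values and not by this contrast, though earlier results of these data were known then. The SEs, intervals and p-values of all regional comparisons come from the spread of libraries within site and treatment groups. They hold no variation between the sites of a region, so they describe these sites only. The SDs given for a region pool the libraries of its sites. The southern heat effect was 1.90 and the northern 2.33 for GRP78 (log2, SE 0.47 each), a difference of -0.42 ± 0.67 (SE, 95% interval -1.89 to 1.04). For HSP60 the southern effect was 1.18 and the northern 1.86 (SE 0.30 each), a difference of -0.68 ± 0.42 (-1.61 to 0.24). The BiP-like difference was -1.52 ± 0.85 (-3.39 to 0.35), a value that rests on 7 southern and 5 northern control reads. None of the 3 passed (limma, adjusted p = 0.9999 for each). No contig of the 14444 passed in this comparison (0%), with 197 at an unadjusted p under 0.05 (1.36%), and with counts of recovered reads edgeR called 0 and DESeq2 called 0. All 3 intervals include 0 and reach down to -1.61 or lower.

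In the 12 libraries that did not stand apart, the southern minus northern heat effect was -0.78 ± 0.18 (SE, 95% interval -1.19 to -0.38) for GRP78. It was -0.72 ± 0.22 (-1.21 to -0.23) for HSP60 and -2.53 ± 0.60 (-3.87 to -1.19) for the BiP-like contig. These single intervals exclude 0, but after adjustment over all contigs none passed (limma, adjusted p = 0.526 for GRP78 and the BiP-like contig and 0.580 for HSP60). In that comparison 2 contigs (0.0138%) passed, and 7.7% had an unadjusted p under 0.05. With a term for the 4 libraries in place of leaving them out, the interval was -1.02 to 0.18 for GRP78 and -3.25 to 0.21 for the BiP-like contig, which both include 0, and -1.07 to -0.30 for HSP60. None passed in that fit (limma, adjusted p = 0.862 for GRP78 and 0.843 for the BiP-like contig and HSP60).

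In controls, HSP60 averaged 1154 ± 281 in southern and 777 ± 362 in northern snails (SD, n = 4 each), and the groups overlapped. The southern minus northern log2 difference was 0.64 ± 0.30 (SE, 95% interval -0.02 to 1.29), which did not pass (limma, adjusted p = 0.557), while 38 contigs (0.263%) did, and 10 (without Slide Ranch control 2) to 51 (without La Jolla heat 1) with 1 library left out. In the 12 libraries HSP60 had 1307, 1004 and 844 in southern controls, against 667, 505 and 625 in northern controls. There it was higher in southern controls, with a difference of 0.71 ± 0.15 (0.36 to 1.05) and an adjusted p of 0.0402 in limma, among 4.17% of contigs called. With a term for the 4 libraries the adjusted p was 0.0137, among 5.43% called. Over all alternatives the adjusted p ran from 0.0137 to 1. HSP60 passed in 2 of 28 alternatives, without the 4 libraries and with a term for them, and both were chosen after the data were seen. Every southern control of the 12 lay above every northern one, which 13.7% of contigs shared. The SEs, intervals and p-values of this HSP60 difference hold no variation between the sites of a region. Whether it extends to other sites was not tested. Ovary and egg markers also differed here, with a summed level of 345026 to 472738 in southern controls and 219858 to 322410 in northern controls over all 16 libraries, and their part in the HSP60 difference was not tested.

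GRP78 averaged 4606 ± 1203 in southern controls and 5679 ± 5210 in northern controls (SD, n = 4 each). Its log2 difference was 0.02 ± 0.47 (95% interval -1.02 to 1.06), which did not pass (limma, adjusted p = 0.9995). Over the 12 libraries the southern controls, at 3586 to 4706, lay above the northern ones, at 2644 to 3406, as for 13.7% of contigs. The difference there was 0.43, with 1 control each from Pigeon Point and La Jolla, and is given as a description. The large northern spread came from the first Pigeon Point control, at 13479. For the BiP-like contig no regional ratio is given in controls, since 6 of the 8 controls were at or under the floor and the other 2, the first Pigeon Point and the second La Jolla control, held 4 reads each.

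In heated snails, HSP60 averaged 2623 ± 746 in southern and 2737 ± 920 in northern snails (SD, n = 4 each). The log2 difference was -0.05 ± 0.30 (SE, 95% interval -0.70 to 0.61). GRP78 averaged 17779 ± 7357 in southern and 24494 ± 13801 in northern heated snails, a difference of -0.40 ± 0.47 (-1.44 to 0.63). The BiP-like contig averaged 322 ± 95.4 in southern and 830 ± 362 in northern heated snails, a difference of -1.28 ± 0.60 (-2.60 to 0.04). None passed in limma (adjusted p = 0.983 for HSP60, 0.811 for GRP78 and 0.370 for the BiP-like contig), where 168 contigs (1.16%) did, and 23 (without Aliso Beach heat 2) to 351 (without La Jolla heat 2) with 1 library left out. DESeq2 put the BiP-like contig lower in southern heated snails (-1.30, adjusted p = 0.0423), in a comparison where it called 792 of 14444 contigs. The BiP-like contig passed in 1 of 28 alternatives. Over all alternatives its adjusted p ran from 0.0423 to 0.644. In the 12 libraries the BiP-like contig had 347 to 396 in southern heated libraries, against 779 to 1118 in northern ones, and GRP78 had 12678 to 15267 in southern heated libraries, against 16833 to 18737 in northern ones. For both, every southern heated library of the 12 lay below every northern one, as for 16.6% of contigs. Another 16.6% had every southern heated library above, so a lack of overlap in either direction was more common than 16.6%. The log2 differences in the 12 were -1.33 for the BiP-like contig and -0.35 for GRP78. Neither passed in limma, where 9.37% of contigs were called. Ovary and egg markers summed to 433068 to 699194 in southern and 289803 to 586816 in northern heated libraries, and their part was not tested.

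**Figure D3:**
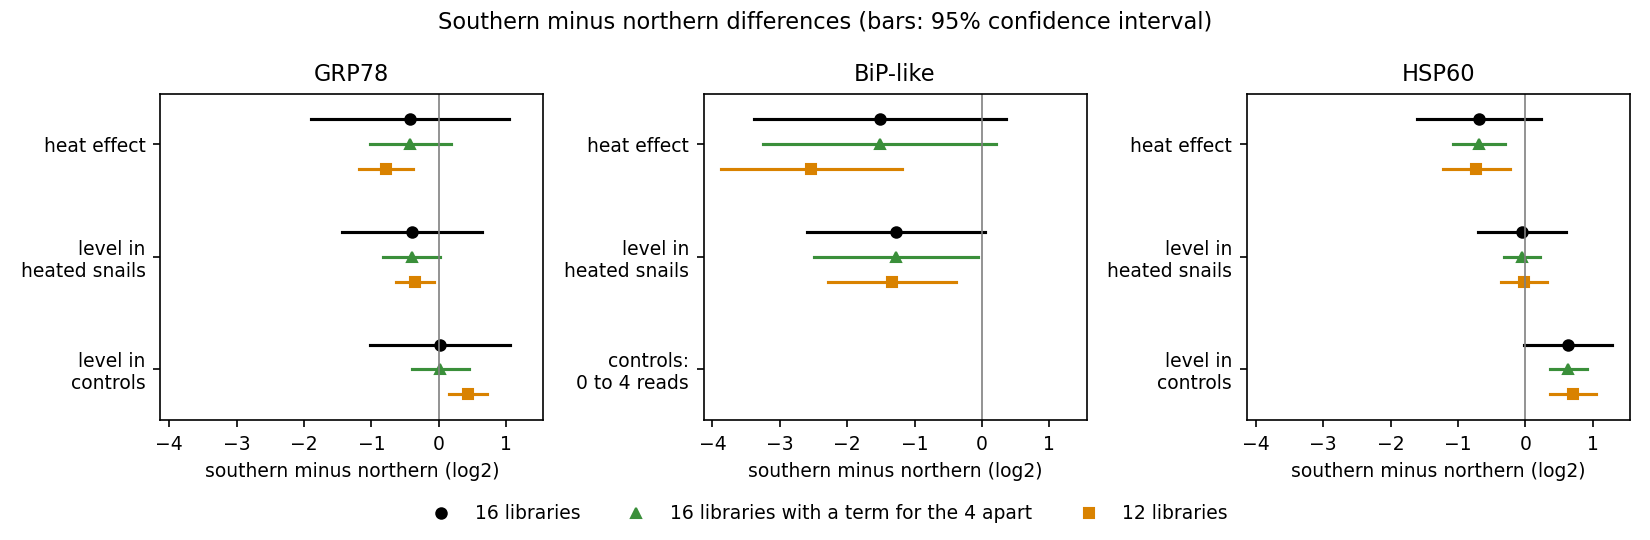
Southern minus northern differences on the log2 scale, with 95% confidence intervals, for the heat effect and for the level in heated and in control snails, in 16 libraries, in 16 with a term for the 4 that stand apart, and in 12. HSP60 in controls is 0.64 (-0.02 to 1.29) in 16 and 0.71 (0.36 to 1.05) in 12 libraries; in heated snails it is near 0.

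The 4 libraries that stand apart had unequal values of the 3 transcripts. At Pigeon Point the first library over the second was 2.62 for GRP78 in heated and 5.10 in control snails, and 1.83 and 2.10 for HSP60. At La Jolla it was 2.26 in heated and 1.62 in control snails for GRP78, and 1.69 and 1.73 for HSP60. All 4 ratios were above 1 for GRP78 and HSP60, as for 28.4% of contigs. The BiP-like contig went the other way in heated snails, at 0.434 for Pigeon Point and 0.502 for La Jolla, as did 40.9% of contigs. At Aliso Beach and Slide Ranch, which have no library that stands apart, the first library over the second was 0.898 to 1.31 for GRP78, 1.10 to 1.32 for HSP60 and 1.03 to 1.14 for the heated BiP-like contig. The digestive gland sum was 1161322 to 1933477 (median 1608776) in the 4 libraries that stand apart and 849470 to 1237114 (median 1095480) in the other 12. The muscle sum was 86913 to 163004 (median 107093) in the 4 and 106359 to 184673 (median 146576) in the 12. Ovary and egg markers summed to 322410 to 699194 in the 4 and 219858 to 625026 in the 12, and testis and sperm markers to 19069 to 22486 in the 4 and 22402 to 30641 in the 12. Their part in these ratios was not tested.

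These ratios depend on the scaling. In reads per 1000000 of all reads, GRP78 at La Jolla was 0.931 in heated and 0.983 in control snails, and HSP60 0.695 in heated La Jolla snails, so those directions turn. At Pigeon Point GRP78 stayed above 1 by that scaling, at 1.47 in heated and 2.87 in control snails. The BiP-like ratios were below 1 under each scaling, at 0.207 to 0.329 for La Jolla and 0.244 to 0.286 for Pigeon Point by all reads and by reads outside SR_contig_83. Within the 4 libraries, heated over control, GRP78 was 3.35-fold at Pigeon Point and 4.58-fold at La Jolla, and HSP60 was 3.13-fold and 2.55-fold. In the second libraries of the same sites GRP78 was 6.52-fold at Pigeon Point and 3.28-fold at La Jolla, and HSP60 was 3.58-fold and 2.62-fold. The BiP-like contig was 58.2-fold at Pigeon Point and 166-fold at La Jolla within the 4 libraries, on 4 control reads and 1. In the second libraries it was at least 381-fold at Pigeon Point, against the floor, and 107-fold at La Jolla. All 3 transcripts were higher in heated snails within either set.

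**Figure D4:**
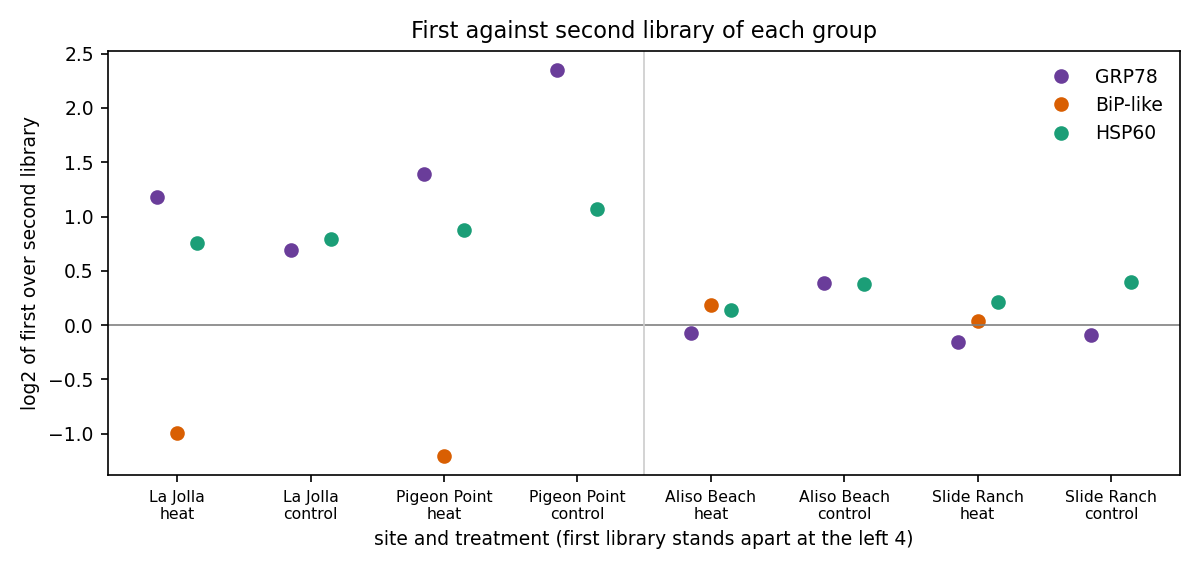
Log2 ratio of the first to the second library of each group, by site and treatment, for the 3 transcripts, where 0 marks equal values and BiP-like controls are left out. At La Jolla and Pigeon Point, GRP78 and HSP60 lie above 0 (linear ratios up to 5.10) and the heated BiP-like contig below 0 (linear ratios 0.502 and 0.434).

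The other contigs of the endoplasmic reticulum list, which holds folding enzymes and the unfolded protein response, had smaller log2 fold changes than GRP78 except for 1, a PERK-like kinase. GRP78 was chosen by its value in this same contrast, so its place above them is a description and nothing is read from it. Of 47 contigs 44 were tested, and 1 was higher and 0 lower in heated snails (limma, where 2.08% of all contigs were higher and 2.16% lower), with a median log2 fold change of 0.23 against 0.00072 over all contigs tested. The 44 included 12 at an unadjusted p under 0.05, 11 of them higher, and 34 were above 0. Of all contigs, 18.4% had such a p and 50.1% were above 0. In edgeR 1 was higher and 0 lower, against 1.93% and 2.4% of all contigs, and in DESeq2 4 were higher and 0 lower, against 4.66% and 4.43%. Without the 4 libraries, 16 were higher and 0 lower, against 10.6% and 8.22% of all contigs, with a median of 0.24 against 0.017. The list holds 13 contigs named x-box binding, of which 12 were tested, and these gave 0 calls in 16 libraries and 7 in 12. The other 32 tested contigs gave 1 and 9. Over 16 libraries less 1, the count of higher contigs was 4 without La Jolla heat 2, 3 without Pigeon Point control 1 or Pigeon Point heat 2, 2 without La Jolla control 1 and 1 otherwise.

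The contig that passed is PERK-like (SR_contig_4259_C3.1, eukaryotic translation initiation factor 2-alpha kinase 3-like), the sensor kinase that slows translation when unfolded protein builds up in the endoplasmic reticulum. It averaged 1251 ± 187 normalised counts in heated snails, with a range of 894 to 1533, against 182 ± 30.0 in controls, with a range of 153 to 247 (SD, n = 8 each). It rose by a log2 fold change of 2.78 ± 0.11 (SE, limma adjusted p = 2.7e-08). The rise was 2.46 at Aliso Beach, 2.86 at La Jolla, 3.24 at Slide Ranch and 2.55 at Pigeon Point. Heated and control libraries did not overlap, and the first heated library was 0.969 of the second at Pigeon Point and 0.959 at La Jolla.

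Among the list's most abundant contigs, XBP1 (SR_contig_1764), the transcription factor downstream of IRE1, averaged 14395 ± 2013 in heated snails and 10543 ± 1159 in controls (log2 fold change 0.44 ± 0.12, limma adjusted p = 0.0601). SERP2 (SR_contig_3547), a small protein linked to the translocation channel of the endoplasmic reticulum, averaged 15700 ± 7451 in heated snails and 9279 ± 1768 in controls (0.66 ± 0.20, adjusted p = 0.0981 in limma). Neither passed in 16 libraries. In the 12, the log2 fold change was 0.43 for XBP1 and 0.54 for SERP2. The other 2 most abundant contigs, SR_contig_3995_C3.1 and SR_contig_2743, carry only the names x-box binding protein and x-box binding. They had log2 fold changes of 0.40 and 0.32 in 16 libraries, where neither passed, and of 0.52 and 0.33 in the 12.

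Further partners of GRP78 were picked after their values were seen. MANF (SR_contig_16449), a secreted protein of the endoplasmic reticulum that is induced by its stress in mammals, averaged 748 ± 489.7 in heated snails and 400.4 ± 277 in controls (log2 fold change 0.94, limma adjusted p = 0.263). The disulfide isomerase PDIA6 (SR_contig_6843) had 0.73 (adjusted p = 0.263) and GRP94 (SR_contig_5906), the HSP90 of the endoplasmic reticulum, 0.49 (adjusted p = 0.220). In the 12 libraries these 3 had log2 fold changes of 0.90, 0.69 and 0.44. Calreticulin (SR_contig_8948), a lectin chaperone, averaged 7966 ± 2478 in heated snails and 7844 ± 2108 in controls, a log2 fold change of 0.01 ± 0.21 that did not pass. Several other contigs of the list also changed little in 16 libraries. The HSP40 DNAJB11 (SR_contig_27267) had 0.03 and the translocation protein SEC63 (SR_contig_9753) 0.09. Calnexin (SR_contig_3614) had -0.05 and a disulfide isomerase (SR_contig_2267) -0.11. Contigs named for the nucleotide exchange factor SIL1 ran from -0.35 to 0.78. In the 12 libraries DNAJB11 had 0.42, close to the 0.44 of GRP94 there. MANF and PDIA6 were also far above the second library in the first heated libraries, at 4.08 and 2.89 times for Pigeon Point, as GRP78 was. Of the 44 tested contigs of the list, 24 were higher in the first library in all 4 groups of Pigeon Point and La Jolla, against 28.4% of all contigs.

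Contigs of the mitochondrial list had log2 fold changes of 0.54 or less, below the 1.52 of HSP60. HSP60 was chosen by its value in this same contrast, so its place above the list is a description and nothing is read from it. The list of mitochondrial chaperones, proteases and import receptors held 18 contigs, all tested, of which 0 were higher and 0 lower in limma, against 2.08% and 2.16% of all contigs. There 3 had an unadjusted p under 0.05 and 13 were above 0, against 18.4% and 50.1% of all contigs. The median log2 fold change was 0.15, against 0.00072 over all contigs. In edgeR 0 passed, and in DESeq2 1 was higher. The limma count was 2 higher without La Jolla heat 2 and 1 without Pigeon Point control 1. The list was made by name pattern, its patterns for HSP10 and mortalin matched no contig name, and it takes in a cereblon homolog and a LON domain and RING finger protein by their names. Its most abundant contigs were the processing peptidase beta subunit (SR_contig_84), prohibitin (SR_contig_1708_C3.1), the protease subunit ClpX (SR_contig_19810) and the import channel TOM40 (SR_contig_13500). Their log2 fold changes were 0.39, 0.31, -0.07 and 0.40. TOM40 averaged 1052 ± 269 in heated snails and 784 ± 141 in controls (limma adjusted p = 0.0815). Without the 4 libraries, 3 passed as higher, TOM40, TOM20 and the processing peptidase beta subunit, and 1 as lower, the protease AFG3L2, at changes of 0.49 or less in size. In that fit 10.6% of all contigs were higher and 8.22% lower, so the list's counts lay near those shares. Of the 18 contigs, 9 were higher in the first library in all 4 groups of Pigeon Point and La Jolla, a pattern of 28.4% of all contigs.

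**Figure D5:**
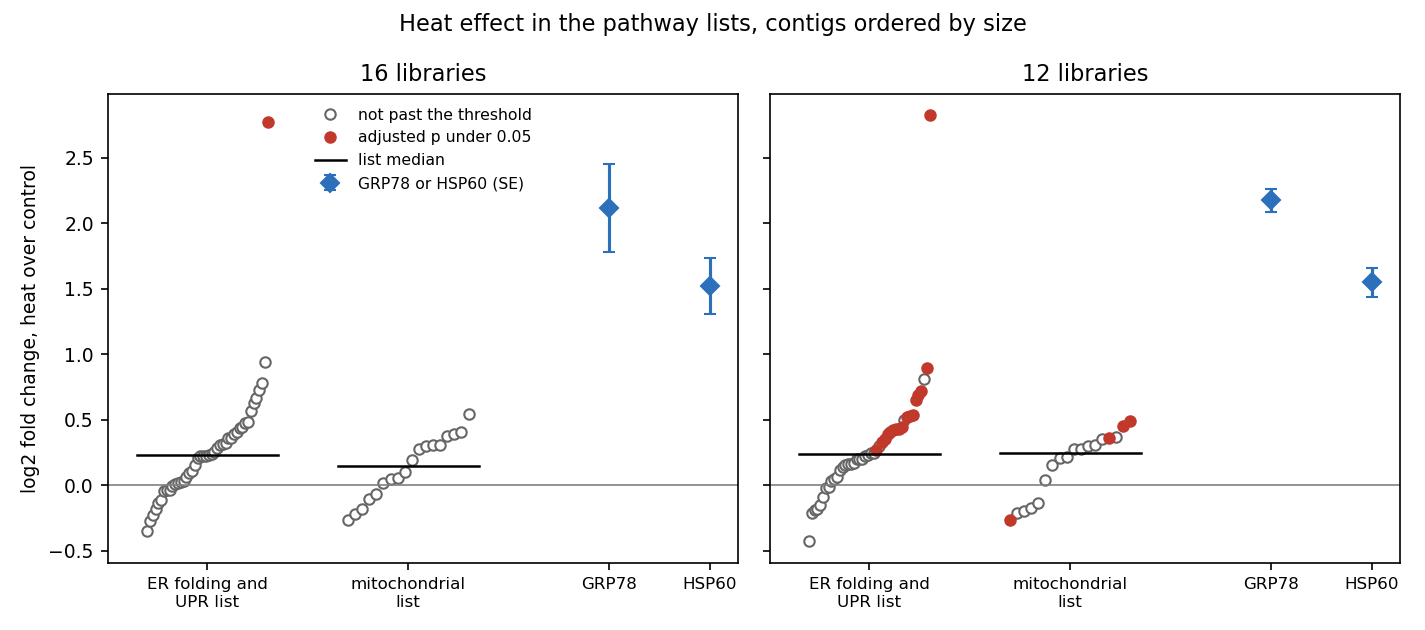
Log2 fold change, heated over control, of each tested contig in the endoplasmic reticulum and mitochondrial lists, in 16 libraries (left panel) and 12 (right panel); filled points passed (limma, adjusted p under 0.05), lines are list medians and diamonds are GRP78 and HSP60 with 1 SE. In 16 libraries the medians are 0.23 and 0.15, and the PERK-like contig at 2.78 is the filled point. GRP78 and HSP60 were chosen by this contrast, so their height above the lists is a description.

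The HSP70 list holds contigs named for cytosolic HSP70 proteins, the family to which GRP78 belongs, and for proteins that bind them. It had 6 of 8 contigs higher and 0 lower in limma, against 2.08% and 2.16% of all contigs, and 7 higher in the 12 libraries, against 10.6%. The largest changes were 10.44 ± 0.29 for SR_contig_18771_C3.1, which averaged 408957 ± 89713 in heated snails and 369 ± 289.8 in controls, and 9.71 ± 0.35 for SR_contig_12347_C3.1. SR_contig_5144 rose by 6.27, the HSP70-binding cochaperone SR_contig_16467_C3.1 by 6.46 and the HSP70-4-like SR_contig_2239_C3.1 by 2.92. SR_contig_525, also named HSP70, rose by 2.08 ± 0.17 and had high control counts, 44343 ± 9467, against 187416 ± 39504 in heated snails. By its name the BiP-like contig belongs to the HSP70 family, so its heated values were set against those of the contigs named HSP70. Per 1000 normalised counts of SR_contig_18771_C3.1, the BiP-like contig had 0.393 to 2.58 across the 8 heated libraries, a 6.57-fold range in which SR_contig_18771_C3.1 itself ranged 1.86-fold. The range was 4.82-fold to 8.37-fold against the other 3 contigs named HSP70. Without La Jolla heat 1 the ranges were 3.33-fold to 4.86-fold over the 4 contigs. In the 6 heated libraries that did not stand apart, the range was 2.58-fold for SR_contig_18771_C3.1 and 2.08-fold to 2.93-fold over the 4 contigs.

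Similar profiles were ranked over the 8 site-by-treatment means of log2(value + 1), each centred on its own mean, by the root mean square difference among 7428 named contigs with a mean of at least 50. Nearest to GRP78 were the HSP70 contig SR_contig_525 (difference 0.20) and BTG2 (SR_contig_1066, 0.23), followed by a BAX-like apoptosis regulator (SR_contig_15738, 0.27) and a contig named transforming protein (SR_contig_49268, 0.27). Nearest to the BiP-like contig were the BAG3-like cochaperone (SR_contig_31772, 0.59), the HSP40 DNAJB1 (SR_contig_17338, 0.60), a cactus-like NF-kappa-B inhibitor (SR_contig_12677_C3.1, 0.64) and a BIRC3-like contig (SR_contig_6960_C3.1, 0.80). Nearest to HSP60 were GET4 (SR_contig_107203, 0.20), SUGT1 (SR_contig_13117_C3.1, 0.23), a C21orf59-like contig (SR_contig_20524, 0.23) and RuvB-like 1 (SR_contig_16137, 0.25). GRP78 and HSP60 differed from each other by 0.41, and the BiP-like contig from them by 2.94 and 3.25. The 8 means contain the heated over control values by which the 3 were chosen, so the ranks are a description.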

How the data were processed

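The values the authors deposited are a signal: each library's counts over its own size factor. They were whole multiples of the value of 1 read within 0.01, so reads were recovered. CASAVA and DESeq are named in the submitters' processing notes. No source used here gives the assembler, the mapper or how reads matching several contigs were handled.

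The main model, in limma 3.58.1 under R 4.3.3, took log2(value + 1), a trended variance, a mean for each of 8 groups of 2, all 16 libraries and contigs with a mean of at least 10. P-values were adjusted by Benjamini-Hochberg over all 14444 contigs, with 0.05 as the threshold. The added 1 makes fold changes of low contigs too small. edgeR 4.0.16 quasi-likelihood and DESeq2 1.42.0 on recovered reads were alternatives, beside other pseudocounts (0.5 and 5), filters, TMM scaling, a replicate block and leaving out each library. Alternatives chosen after seeing the data were leaving out 4 libraries, a term for them, and scaling by reads outside SR_contig_83. A library left alone in its group was given the spread of the other groups. Scripts were tested on simulated data.

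The transcripts and lists were chosen with earlier results of these data known. Lists are name patterns; named contigs are the 3 transcripts, list contigs past the threshold, up to 4 per list with the highest mean, and up to 4 nearest profiles. MANF, PDIA6, GRP94, calreticulin, DNAJB11, SEC63, calnexin, SIL1, a disulfide isomerase, SR_contig_83 and the mitochondrial contigs TOM20 and AFG3L2 fall outside this rule. They were chosen after their values were seen. No libraries were duplicates (chi-square per degree of freedom 20.18 or more within groups). Read intervals are exact 95% intervals and cover counting error only. Figures were drawn with matplotlib 3.10.9.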

Additional observations from a re-analysis of the deposited data

Results flagged for a closer look

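In groups of 4 to 8 libraries, a library was singled out where its gap to the nearest other exceeded Dixon's 95% critical value for the group's range. The 18 groups share libraries and pool sites, so no chance rate is set beside their count. Of them, 6 had such a library, and every library concerned is one of the 4 that stand apart. For GRP78 these were the first heated La Jolla library among southern heated ones (28694), the first heated Pigeon Point library among northern heated ones (45159), and the first Pigeon Point control (13479), both among northern controls and among all controls. For HSP60 it was the first heated La Jolla library among southern heated ones (3733). For the BiP-like contig it was the first Pigeon Point control among northern controls (5.81), which rests on 4 reads.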

How the results depend on the processing

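With TMM scaling and with a pseudocount of 0.5, all 22 results compared were rated the same. The regional tests of the chaperones kept direction and side of the threshold. Their heat changes moved by less than the SD within groups, and the counts of contigs changed little. A pseudocount of 5 gave a BiP-like heat change of 6.26. No filter, or a mean of at least 50, gave 2 endoplasmic reticulum contigs higher. The regional GRP78 difference in controls turned to -0.16 in edgeR, -0.17 in DESeq2 and -0.0642 with scaling outside SR_contig_83. DESeq2 called 673 contigs higher and 640 lower under heat, 4 endoplasmic reticulum and 1 mitochondrial contig higher, 340 between controls and 792 between heated snails, where the BiP-like contig passed (-1.30). Only the libraries compared gave 8 calls between controls and 9 between heated snails. Without the 4 libraries that stand apart, heat gave 1525 higher and 1187 lower, with 16 endoplasmic reticulum contigs higher and 3 mitochondrial contigs higher and 1 lower. The regions then gave 2 for the heat effect, 602 for controls (HSP60 0.71 passed) and 1354 for heated snails. A term for them gave 1941 higher and 1590 lower, 14 endoplasmic reticulum contigs higher, 5 mitochondrial contigs higher and 1 lower, 785 for controls (HSP60 0.64 passed) and 2019 for heated snails. Scaling outside SR_contig_83 gave 165 higher and 1254 lower, 4 endoplasmic reticulum and 2 mitochondrial contigs lower, and 29 between heated snails. The cause was not tested.

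Replicate numbers were not treated as pairing the libraries, since the labels do not say that they do and not every site passed a correlation of 0.1. Deviations of same-numbered heated and control libraries correlated at -0.0588 for Slide Ranch, 0.103 for Aliso Beach, 0.644 for La Jolla and 0.694 for Pigeon Point. With the replicate block heat gave 1756 higher and 1337 lower, 15 endoplasmic reticulum contigs higher and 1 lower, 5 mitochondrial contigs higher, and 71 calls between controls and 282 between heated snails.

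Leaving out each library in turn gave 210 to 483 higher and 188 to 614 lower under heat, 1 to 4 endoplasmic reticulum, 0 to 2 mitochondrial and 6 to 7 HSP70 contigs higher. Heat changes were 1.82 to 2.41 for GRP78, 7.53 to 8.22 for the BiP-like contig and 1.39 to 1.65 for HSP60. The regional heat effect gave 0 to 0 calls, with -1.01 to 0.16 for GRP78 (0.16 without Pigeon Point control 2), -2.21 to -0.83 for the BiP-like contig and -0.95 to -0.42 for HSP60. Between controls, 10 to 51 contigs passed, with -0.57 to 0.61 for GRP78 and 0.37 to 0.90 for HSP60. GRP78 was -0.0042 without Slide Ranch control 1, -0.57 without Pigeon Point control 2, -0.15 without La Jolla control 1 and -0.08 without Aliso Beach control 1. Between heated snails, 23 to 351 passed, with -0.75 to -0.06 for GRP78, -1.58 to -0.98 for the BiP-like contig and -0.27 to 0.17 for HSP60. HSP60 was 0.0058 without Slide Ranch heat 1, 0.17 without Pigeon Point heat 1 and 0.14 without La Jolla heat 2. Depth limits the BiP-like contig in controls, at 0 to 4 reads a library.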
